A study of Mus musculus with 13 samples.

Results

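The liver clears drugs through cytochrome P450 enzymes, a reductase that hands them electrons, and nuclear receptors that set how much of each enzyme is made. Described here are 10 such genes out of 53392 in the table, picked by name for these roles: the receptors Nr1i2 (PXR) and Nr1i3 (CAR), the reductase Por, and the cytochromes Cyp1a2, Cyp2a5, Cyp2b9, Cyp2b10, Cyp2c29, Cyp3a11 and Cyp3a13. Earlier results of these data were known when they were picked. RNA of whole liver was sequenced from 13 female mice, all given a liquid Lieber-DeCarli diet with 28% of calories from alcohol, pair-fed, for 4 weeks. The mice were littermates 8 to 14 weeks old, and all carried Albumin-Cre and 2 copies of a Rosa26 allele from which Cre releases the doxycycline-dependent activator rtTA. Mice called ASAH+ also carried a transgene for the acid ceramidase ASAH1 behind the element that rtTA binds, so that doxycycline (Dox, 200 mg/l in the diet) switches it on in hepatocytes. The study asked what this ceramidase does to the fatty liver that alcohol produces.

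The 13 livers form 3 groups: 4 ASAH− mice on Dox (ASAH− Dox), 5 ASAH+ mice on Dox (ASAH+ Dox) and 4 ASAH+ mice without Dox (ASAH+ Etoh). Total counts per mouse ran from 17819486 to 35358711 with a median of 24454043. No mouse in these data went without alcohol, and no ASAH− mouse went without Dox, so neither the effect of alcohol nor that of Dox alone was measured. The diet model reaches fatty liver and not advanced injury. Whole liver is a mix of cells, in which fewer cells of a type and less RNA per cell cannot be told apart. Every p below measures the spread between these mice, and the hour at which each liver was taken is not in the labels. The table does not separate the transgene from the endogenous gene: Asah1 stood between 40.0 and 55.0 CPM in the 4 ASAH− Dox mice, between 44.2 and 48.3 in the 4 ASAH+ Etoh mice and between 9668 and 15935 in the 5 ASAH+ Dox mice.

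CAR and PXR bind foreign compounds and bile acids and switch on enzymes of the CYP2B, CYP2C and CYP3A families, and Cyp2b10 is the classic target of CAR in mice. POR serves every microsomal cytochrome, and both Por and Nr1i3 have a daily rhythm in mouse liver that runs through the clock-controlled factors DBP, TEF and HLF. Cyp1a2 answers to the aryl hydrocarbon receptor, Cyp2a5 responds to several kinds of liver stress, and Cyp2b9 is a cytochrome of female livers.

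Divided by the length of all annotated exons of a gene and averaged over the 13 mice, Cyp2a5 had the highest level of the 10 genes with 656 ± 299 CPM per kb (SD). Cyp2c29 followed with 592 ± 259, Cyp3a11 with 431 ± 107 and Cyp2b9 with 395 ± 29.7 CPM per kb. Cyp1a2 stood at 197 ± 59.7, Por at 131 ± 46.2, Cyp3a13 at 76.5 ± 19.7, Nr1i3 at 76.3 ± 19.2 and Cyp2b10 at 41.7 ± 38.8 CPM per kb. Nr1i2 had the lowest mean, with mice between 27.8 and 35.5 CPM per kb. The length takes in the exons of every annotated transcript, 5.09 kb for Cyp3a11 and 2.07 kb for Cyp2a5, and the order depends on it. Without this division Cyp3a11 was highest with a mean of 2194 CPM, before Cyp2c29 with 1812 and Cyp2a5 with 1361. The order per kb was not the same in every group. Cyp2c29 stood above Cyp2a5 in ASAH+ Etoh mice (811 against 662 CPM per kb), and Cyp2b9 stood above Cyp3a11 in ASAH+ Dox (389 against 385) and ASAH− Dox mice (382 against 376). Nr1i3 stood above Cyp3a13 in ASAH+ Dox (73.1 against 64.4) and ASAH− Dox mice (77.6 against 70.6). Cyp2b10 ranged from below Nr1i2 in ASAH+ Dox mice (19.5 against 30.9) to slightly above Nr1i3 in ASAH+ Etoh mice (79.3 against 78.8). The ranges of neighbours in this order overlapped in all but 1 of 9 cases: the lowest mouse for Cyp2b9, 335 CPM per kb, lay above the highest for Cyp1a2, 323. Reads of related genes are divided by an estimate, and the share of 31-base words that a gene has in common with other genes shows where this matters. That share was 54.6% for Cyp2a5, most of it with Cyp2a4, then 26.1% for Cyp2b9, 19.4% for Cyp2b10, 15.7% for Cyp3a11, 10.4% for Cyp2c29 and 7.67% for Cyp1a2. It was 0.239% for Cyp3a13 and 0 for Nr1i2, Nr1i3 and Por.

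**Figure D1:**
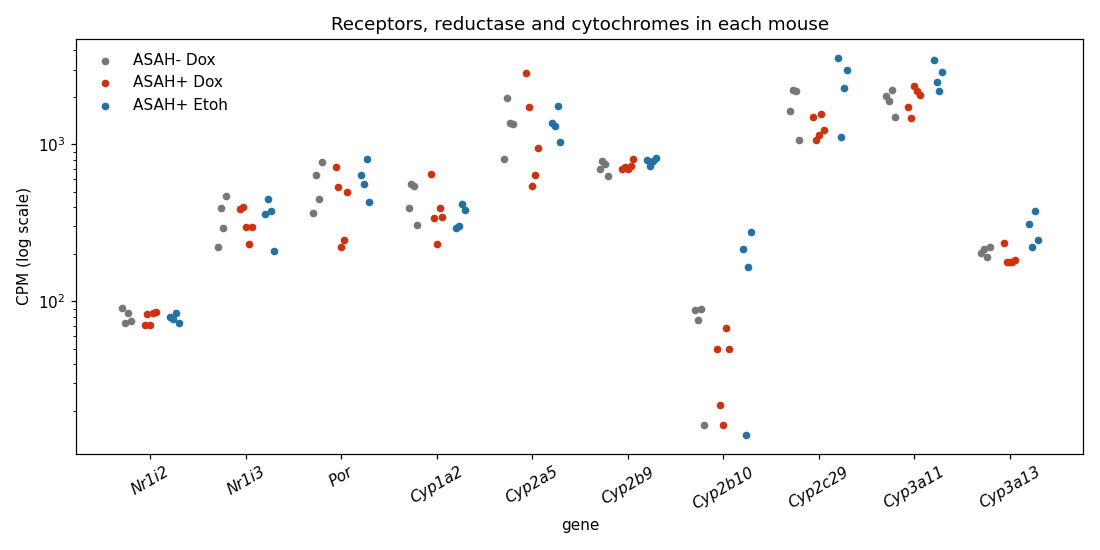
Each point is 1 mouse, with CPM on a log axis and the 10 genes side by side, coloured by group. Nr1i2 and Cyp2b9 spread little between mice, while Cyp2b10 ran from 14.1 to 275 CPM.

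The mice differed from each other far more in some of these genes than in others. Within groups, the SD of log2 CPM was 1.38 for Cyp2b10, and 98.9% of the 14317 genes tested had a smaller one. It was 0.72 for Cyp2a5, 0.58 for Por, 0.51 for Cyp2c29, 0.43 for Cyp1a2 and 0.42 for Nr1i3. Cyp3a11 with 0.27 and Cyp3a13 with 0.22 lay near the median of all genes tested, 0.24. Nr1i2 with 0.12 and Cyp2b9 with 0.10 were steadier than most, and only 8.10% of genes had a smaller SD than Cyp2b9. A difference between groups of a given size is therefore much easier to detect for Nr1i2 or Cyp2b9 than for Cyp2b10.

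Comparing ASAH+ Dox with ASAH− Dox mice asks what the transgene does when both groups drink Dox. Throughout, a gene is called at an adjusted p under 0.1 in edgeR's quasi-likelihood test (Benjamini-Hochberg over all genes tested). In this comparison edgeR called 0 of the 10 genes, against 0.0140% of all genes tested, which is 2 genes, Asah1 and Sod1, both higher. At unadjusted p under 0.05 edgeR had 0 of the 10, against 2.86% of all genes, 1.29% higher and 1.57% lower. DESeq2 called 0 of the 10 and 12 of all genes (0.0759%, made up of 0.0443% higher and 0.0316% lower), and limma-voom called 0 of the 10. The median log2 fold change of the 10 genes was -0.11, beside -0.00225 for all genes tested. Of the 10, 8 were negative, as were 7254 of all 14317 genes tested. For none of the 10 did the mice of both groups separate, whereas 0.447% of all genes tested had every ASAH+ Dox mouse below every ASAH− Dox mouse and 0.440% every one above.

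Comparing ASAH+ Dox with ASAH+ Etoh mice asks what switching on the transgene does in mice of 1 genotype, though Dox itself differs as well. Here edgeR called 0 of the 10 genes, against 0.0140% of all genes tested, again Asah1 and Sod1. At unadjusted p under 0.05 edgeR had 4 of the 10, all lower in ASAH+ Dox mice (Cyp2b10, Cyp2c29, Cyp3a11 and Cyp3a13), against 3.24% of all genes lower, 4.05% higher and 7.29% in either direction. DESeq2 on all 13 mice called 3 of the 10, all lower: Cyp2c29, Cyp3a11 and Cyp3a13. It kept 1982 genes after its own filter and called 98 of them (4.94%), 80 lower (4.04%) and 18 higher (0.908%), so 3 of 10 is a larger share than among all genes it kept. That count of 3 depended on single mice: it was 0 without ASAH+ Etoh replicate 3 and 1 in 7 of the other 12 fits that each left out a mouse. limma-voom called 0 of the 10. The median log2 fold change was -0.28, beside 0.01 for all genes tested. Of the 10, 8 were negative, as were 6728 of all 14317 genes tested. None of the 10 separated the groups, against 1.49% of all genes tested with every ASAH+ Dox mouse below every ASAH+ Etoh mouse and 1.09% with every one above.

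Comparing ASAH− Dox with ASAH+ Etoh mice changes genotype and Dox together with the transgene off in both. In it, edgeR called 0 of the 10 genes, against 0.0140% of all genes tested, which is mt-Co2 and mt-Co3. At unadjusted p under 0.05 edgeR had 2 of the 10, Cyp3a11 and Cyp3a13, both lower in ASAH− Dox mice, against 4.11% of all genes lower, 5.08% higher and 9.19% in either direction. DESeq2 called 0 of the 10 and 149 of the 8625 genes it kept (1.73%, with 1.10% lower and 0.626% higher), and limma-voom called 0 of the 10. The median log2 fold change was -0.13, beside 0.02 for all genes tested. No gene separated the groups, against 2.40% of all genes tested with every ASAH− Dox mouse below every ASAH+ Etoh mouse and 3.09% with every one above. The 3 comparisons share mice, so their values stand side by side and are not independent of each other.

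**Figure D2:**
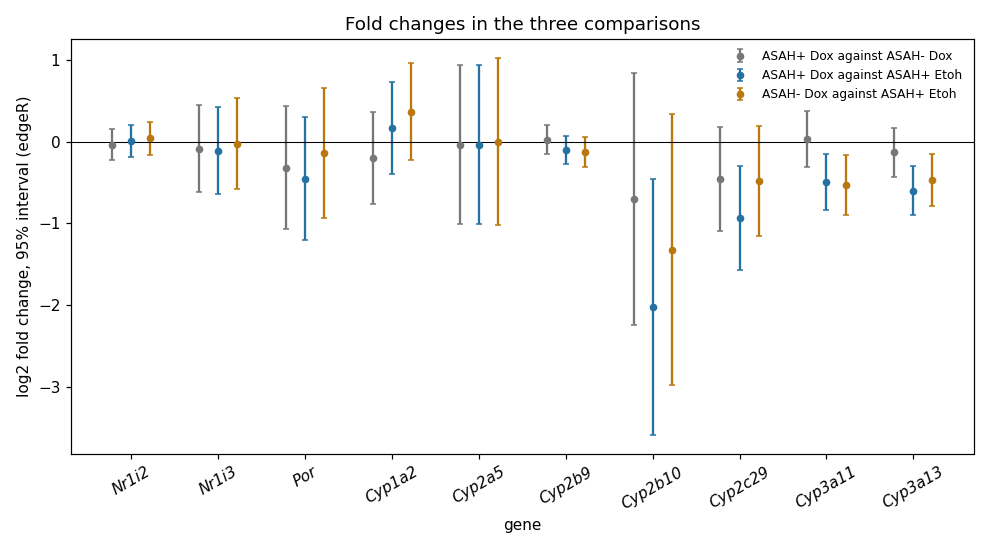
The log2 fold change of each gene from edgeR with its 95% interval as a bar, for the 3 comparisons. Intervals for Cyp2b10, Cyp2c29, Cyp3a11 and Cyp3a13 lie below 0 in the comparison of ASAH+ Dox with ASAH+ Etoh mice, and those for Cyp3a11 and Cyp3a13 also in ASAH− Dox against ASAH+ Etoh mice, before any adjustment for the number of genes.

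Nr1i2 stood at 90.7, 72.9, 84.1 and 75.1 CPM in the ASAH− Dox mice, at 71.0, 82.6, 71.1, 84.0 and 85.5 in the ASAH+ Dox mice, and at 78.9, 77.4, 84.2 and 72.9 in the ASAH+ Etoh mice. All 13 values lie within 1.28-fold of each other and the groups overlap throughout. ASAH+ Dox mice had a log2 fold change of -0.03 (SE 0.09) against ASAH− Dox mice and 0.01 (SE 0.09) against ASAH+ Etoh mice. Its 95% interval in the comparison with ASAH+ Etoh mice ran from -0.18 to 0.20, which bounds the change of PXR mRNA that these mice allow. Of 10 receptors and partner factors, a list with Nr1i2 and Nr1i3 in it, edgeR had 0 at unadjusted p under 0.05 in every comparison. DESeq2 also called 0 in each, but kept only 6 of the 10 in ASAH+ Dox against ASAH+ Etoh mice.

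Nr1i3 stood at 222, 391, 292 and 466 CPM in the ASAH− Dox mice, at 385, 402, 296, 232 and 298 in the ASAH+ Dox mice, and at 359, 448, 375 and 209.8 in the ASAH+ Etoh mice. Each group holds both high and low mice: the lowest are ASAH+ Etoh replicate 4, ASAH− Dox replicate 1 and ASAH+ Dox replicate 4. In the order of the comparisons above, the log2 fold changes were -0.09 (SE 0.25), -0.11 (SE 0.25) and -0.02 (SE 0.26). Because the level of Nr1i3 followed clock genes across mice, as given further on, its promoter is shown from 250 bases before to 50 bases after the RefSeq start, on chr1:171213720-171214019, plus strand, GRCm38.p6.
Nr1i3: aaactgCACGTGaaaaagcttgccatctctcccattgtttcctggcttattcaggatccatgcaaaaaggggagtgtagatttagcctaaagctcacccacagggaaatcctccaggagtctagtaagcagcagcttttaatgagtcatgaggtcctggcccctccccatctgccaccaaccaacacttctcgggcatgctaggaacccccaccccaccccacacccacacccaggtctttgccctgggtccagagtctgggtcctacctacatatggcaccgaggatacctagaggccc
In this and the other promoters, capitals mark matches on either strand to AGGTCA or AGTTCA, which are half-sites of nuclear receptors, to CACGTG, an E-box bound by clock factors, or to TTATGTAA or TTACGTAA, which PAR bZIP factors such as DBP bind. The Nr1i3 promoter has CACGTG 244 bases upstream of the start, and 7.15% of all 32851 promoters searched have this word. A RefSeq start can differ from the start of the transcript model that was counted, and a match only describes the sequence.

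Por stood at 364, 638, 446 and 769.5 CPM in the ASAH− Dox mice, at 721, 539, 222, 245 and 495 in the ASAH+ Dox mice, and at 636, 558, 806 and 432 in the ASAH+ Etoh mice. The values span 3.63-fold, with ASAH+ Dox replicates 3 and 4 lowest, and the groups overlap. The log2 fold change of ASAH+ Dox mice was -0.32 (SE 0.35) against ASAH− Dox and -0.45 (SE 0.35) against ASAH+ Etoh mice, both smaller than the SD of 0.58 between mice of a group. With 1 mouse left out they ran from -0.56 to -0.12 and from -0.71 to -0.29. The Por promoter, shown for the same reason as that of Nr1i3, lies on chr5:135688895-135689194, plus strand, GRCm38.p6, and has no match to any of the 5 words.
Por: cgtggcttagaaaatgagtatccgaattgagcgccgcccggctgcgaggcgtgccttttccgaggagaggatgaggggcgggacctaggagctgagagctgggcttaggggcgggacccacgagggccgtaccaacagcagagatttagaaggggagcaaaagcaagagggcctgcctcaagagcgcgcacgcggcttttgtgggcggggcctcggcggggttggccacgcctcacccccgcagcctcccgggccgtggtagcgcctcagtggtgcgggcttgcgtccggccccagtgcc
Among the 7 genes for electron supply and haem, to which Por belongs, edgeR called 0 in any comparison. At unadjusted p under 0.05 the comparison of ASAH+ Dox with ASAH− Dox mice had 1 of the 7 higher and 1 lower, against 1.29% and 1.57% of all genes, and each of the other comparisons had 0.

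Cyp1a2 stood at 394, 559, 541 and 306 CPM in the ASAH− Dox mice, at 650.4, 338, 231, 392 and 345 in the ASAH+ Dox mice, and at 295, 301, 416 and 380.0 in the ASAH+ Etoh mice. Both the highest and the lowest mouse are ASAH+ Dox mice, replicates 1 and 3. Log2 fold changes of ASAH+ Dox mice were -0.20 (SE 0.26) against ASAH− Dox and 0.17 (SE 0.26) against ASAH+ Etoh mice. With 1 mouse left out they ran from -0.46 to -0.05 and from -0.10 to 0.30. In a list of 8 genes that the aryl hydrocarbon receptor induces, 6 were tested, and edgeR had 0 at unadjusted p under 0.05 in every comparison.

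Cyp2a5 stood at 807, 1974, 1361 and 1357 CPM in the ASAH− Dox mice, at 2833, 1734, 544, 636 and 951 in the ASAH+ Dox mice, and at 1377, 1319, 1751 and 1042 in the ASAH+ Etoh mice. The ASAH+ Dox group alone spans the whole range of 5.21-fold, from replicate 3 to replicate 1. All 3 log2 fold changes were within 0.04 of 0 with an SE of 0.45 to 0.47. With 1 mouse left out, those of ASAH+ Dox mice ran from -0.51 to 0.19 against ASAH− Dox and from -0.52 to 0.16 against ASAH+ Etoh mice, each lowest without ASAH+ Dox replicate 1. The sign in the comparison with ASAH− Dox mice turned positive, 0.14, when the counts of Cyp2a5 and Cyp2a4 were summed.

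Cyp2b9 stood at 696, 787, 752 and 628 CPM in the ASAH− Dox mice, at 693, 718, 698, 732 and 806 in the ASAH+ Dox mice, and at 791, 727, 785 and 822 in the ASAH+ Etoh mice. The 13 values lie within 1.31-fold of each other and the groups overlap. As log2 fold changes, ASAH+ Dox mice differed by 0.03 (SE 0.08) from ASAH− Dox and by -0.10 (SE 0.08) from ASAH+ Etoh mice. Of 10 cytochromes that predominate in females, Cyp2b9 among them, edgeR had 1 lower at unadjusted p under 0.05 in ASAH+ Dox against ASAH− Dox mice, where 1.57% of all genes were lower, and 1 higher against ASAH+ Etoh mice, where 4.05% were higher.

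Cyp2b10 stood at 87.9, 75.5, 88.8 and 16.4 CPM in the ASAH− Dox mice, at 49.9, 21.9, 16.4, 67.6 and 49.9 in the ASAH+ Dox mice, and at 215, 14.1, 166 and 275 in the ASAH+ Etoh mice. The 3 highest are ASAH+ Etoh mice, but the lowest of all 13, replicate 2, belongs to the same group, and values between 14.1 and 21.9 CPM occur in each group. The log2 fold change of ASAH+ Dox against ASAH+ Etoh mice was -2.02, with a 95% interval from -3.59 to -0.455 before adjustment. edgeR's quasi-likelihood test gave an unadjusted p of 0.0159, which became 0.568 after Benjamini-Hochberg adjustment, and the exact two-sided permutation test of the mice gave 0.159. Against ASAH− Dox mice the log2 fold change was -0.71 (SE 0.71). When the counts of Cyp2b10 and its close relatives, Cyp2b9 among them, were summed, -2.02 became -0.24 and -0.71 became -0.14. Cyp2b9 averaged 741 CPM against 88.0 for Cyp2b10, so the sum mostly shows Cyp2b9 and does not test how reads were shared. DESeq2's adjusted p for Cyp2b10 against ASAH+ Etoh mice rounds to the threshold itself without passing it, and DESeq2 called the gene when ASAH+ Etoh replicate 2 or ASAH− Dox replicate 4 was left out. Its promoter is shown because Cyp2b10 differed most between mice, from chr7:25897408-25897707, plus strand, GRCm38.p6, and it has no match to the 5 words.
Cyp2b10: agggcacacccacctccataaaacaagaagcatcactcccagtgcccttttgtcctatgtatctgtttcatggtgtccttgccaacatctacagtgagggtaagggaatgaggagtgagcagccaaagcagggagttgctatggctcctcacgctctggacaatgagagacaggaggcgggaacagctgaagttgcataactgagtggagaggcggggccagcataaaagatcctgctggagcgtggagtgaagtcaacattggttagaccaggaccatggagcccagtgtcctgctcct
The element through which CAR is known to act on Cyp2b10 lies further upstream than this window reaches.

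Cyp2c29 stood at 1642, 2218, 2190.5 and 1061 CPM in the ASAH− Dox mice, at 1499.9, 1068, 1141, 1554 and 1243 in the ASAH+ Dox mice, and at 3570.4, 1114, 2286 and 2964 in the ASAH+ Etoh mice. As for Cyp2b10, 3 ASAH+ Etoh mice are highest and replicate 2 of that group is among the lowest. The 4 mice lowest for Cyp2b10, namely ASAH− Dox replicate 4, ASAH+ Dox replicates 2 and 3 and ASAH+ Etoh replicate 2, are also the 4 lowest for Cyp2c29. ASAH+ Dox against ASAH+ Etoh mice gave a log2 fold change of -0.93 (SE 0.29). Its unadjusted p was 0.00761, edgeR's quasi-likelihood test (Benjamini-Hochberg) gave 0.531, and the exact permutation test gave 0.0635. DESeq2's adjusted p was 0.0340, and its call of Cyp2c29 held in 5 of the 13 fits that left out 1 mouse. The promoter, shown because DESeq2 called the gene, lies on chr19:39286835-39287134, plus strand, GRCm38.p6.
Cyp2c29: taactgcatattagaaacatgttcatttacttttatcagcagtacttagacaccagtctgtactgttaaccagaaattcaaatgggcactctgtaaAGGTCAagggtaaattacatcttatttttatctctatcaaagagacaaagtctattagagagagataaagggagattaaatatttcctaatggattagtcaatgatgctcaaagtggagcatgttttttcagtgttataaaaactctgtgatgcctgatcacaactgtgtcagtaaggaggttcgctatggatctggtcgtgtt
It has AGGTCA 154 bases upstream of the start, a word that 16.3% of all 32851 promoters have and 4 of the 10 described here. Cyp2a5 is among these 4, and there the word lies 29 bases after the start.

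Cyp3a11 stood at 2023, 1902, 2239 and 1500.5 CPM in the ASAH− Dox mice, at 1719.7, 1470.3, 2361, 2192 and 2072 in the ASAH+ Dox mice, and at 3461, 2482, 2194 and 2908 in the ASAH+ Etoh mice. Of the 20 pairs of an ASAH+ Dox with an ASAH+ Etoh mouse, 19 had the ASAH+ Dox mouse lower. The exception is ASAH+ Dox replicate 3 over ASAH+ Etoh replicate 3. The log2 fold change was -0.49 (SE 0.16) against ASAH+ Etoh mice and 0.04 (SE 0.16) against ASAH− Dox mice. Summed with its close paralogs, Cyp3a11 had -0.14 against ASAH+ Etoh mice. Cyp3a41a, the gene that shares most words with it, went the other way there, with 1.95 (SE 1.00). For Cyp3a11 alone against ASAH+ Etoh mice, edgeR's quasi-likelihood test gave an unadjusted p of 0.00875 and 0.535 after Benjamini-Hochberg adjustment. DESeq2 gave an adjusted p of 0.0844, and the exact permutation test gave 0.0317, where 0.00794 is the smallest this test can give. The DESeq2 call of Cyp3a11 held in 2 of the 13 fits that left out 1 mouse and was lost when DESeq2 was run on the compared groups alone. ASAH− Dox mice were also lower than ASAH+ Etoh mice in 15 of 16 pairs, with a log2 fold change of -0.53 (SE 0.17), an adjusted p of 0.392 by edgeR's quasi-likelihood test (Benjamini-Hochberg), and an exact permutation p of 0.0571. The promoter is shown because DESeq2 called the gene and PXR is its known activator, from chr5:145879805-145880104, minus strand, GRCm38.p6.
Cyp3a11: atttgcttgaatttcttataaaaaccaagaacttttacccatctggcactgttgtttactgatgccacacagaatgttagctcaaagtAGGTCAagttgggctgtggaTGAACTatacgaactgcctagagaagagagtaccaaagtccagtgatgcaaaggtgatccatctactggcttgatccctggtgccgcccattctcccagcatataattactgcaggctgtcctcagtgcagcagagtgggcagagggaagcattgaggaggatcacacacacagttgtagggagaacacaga
It has AGGTCA 162 bases and, on the opposite strand, AGTTCA 142 bases upstream of the start. AGTTCA occurs in 14% of all promoters and in 1 of the 10.

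Cyp3a13 stood at 204, 217, 191 and 222 CPM in the ASAH− Dox mice, at 234, 177, 178, 179 and 184 in the ASAH+ Dox mice, and at 311, 221, 376 and 245 in the ASAH+ Etoh mice. Again 19 of 20 pairs had the ASAH+ Dox mouse below the ASAH+ Etoh mouse, with ASAH+ Dox replicate 1 over ASAH+ Etoh replicate 2 as the exception, and 4 of the 5 ASAH+ Dox mice are within 7 CPM of each other. The log2 fold change against ASAH+ Etoh mice was -0.60 (SE 0.14), with a 95% interval from -0.90 to -0.30. The unadjusted p of 0.000713 was the smallest of the 10 genes in any comparison. Adjusted by Benjamini-Hochberg, edgeR's quasi-likelihood test gave 0.407 and DESeq2 gave 0.00443, and the exact permutation test gave 0.0238. DESeq2 called Cyp3a13 in 12 of the 13 fits that left out 1 mouse, the exception being ASAH+ Etoh replicate 3. ASAH− Dox mice against ASAH+ Etoh mice had a log2 fold change of -0.47 (SE 0.15), an adjusted p of 0.389 by edgeR's quasi-likelihood test (Benjamini-Hochberg), and an exact permutation p of 0.0571. Against ASAH− Dox mice the log2 fold change of ASAH+ Dox mice was -0.13 (SE 0.14), and from -0.22 to -0.10 with 1 mouse left out. The promoter is shown for comparison with that of Cyp3a11, from chr5:137921570-137921869, minus strand, GRCm38.p6, and it has no match to the 5 words.
Cyp3a13: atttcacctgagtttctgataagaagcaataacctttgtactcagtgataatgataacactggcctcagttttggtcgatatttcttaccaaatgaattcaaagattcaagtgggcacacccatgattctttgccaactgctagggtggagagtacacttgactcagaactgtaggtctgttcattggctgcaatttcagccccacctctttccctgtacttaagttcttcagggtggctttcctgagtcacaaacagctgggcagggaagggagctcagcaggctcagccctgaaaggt
The paralogs Cyp3a16 and Cyp3a41a varied between mice of every group by much more: Cyp3a16 ran from 1.39 to 183 CPM and Cyp3a41a from 38.7 to 1961 CPM over the 13 mice. Cyp3a41a averaged 658 CPM in ASAH+ Dox, 686 in ASAH− Dox and 169.8 in ASAH+ Etoh mice. Its log2 fold changes against ASAH+ Etoh mice, 1.95 (SE 1.00) and 2.01 (SE 1.04), were opposite in sign to those of Cyp3a11 and Cyp3a13 and were not called.

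Across the 13 mice, 6 of the 45 pairs among the 10 genes correlated at an adjusted p under 0.1 (permutation of log2 CPM, Benjamini-Hochberg over the 45 pairs). These 6 are 13.3% of the pairs and have r of 0.676 or more, a size that 2.92% of all pairs of tested genes reach in either sign. That size was taken from the smallest r of the 6 themselves, and the pairs share genes. Setting these shares side by side is therefore not a test. The count of correlated pairs ran from 2 to 13 when 1 mouse was left out, with 13 without ASAH+ Etoh replicate 2. The closest pair was Cyp2b10 with Cyp2c29: r was 0.931 with a permutation p of 1.0e-05, the smallest that 100000 resamples can give, adjusted p 0.00045, and rho was 0.951 with a permutation p of 3.0e-05. This r was 0.921 without the 2 mice farthest from the median of Cyp2b10 and 0.921 after each group was centred on its mean. Por with Cyp2a5 had r 0.875 (permutation p 0.00012, adjusted 0.0027) and rho 0.824 (p 0.00095), 0.721 without the 2 farthest mice and 0.890 centred. Nr1i3 with Por had r 0.710 (permutation p 0.0066, adjusted 0.085) and rho 0.742 (p 0.0053), 0.785 without 2 mice and 0.744 centred. Cyp2b9 correlated with Cyp2b10 (r 0.702, permutation p 0.0079, adjusted 0.085, rho 0.610 with p 0.030) and with Cyp2c29 (r 0.678, p 0.011, adjusted 0.085, rho 0.676 with p 0.014). These fell to r 0.543 and 0.551 without 2 mice and were 0.672 and 0.661 centred. Cyp2c29 with Cyp3a11 had r 0.676 (permutation p 0.011, adjusted 0.085) and rho 0.544 (p 0.059), but 0.289 without the 2 farthest mice, so it rests on those mice, and 0.560 centred on groups (adjusted p 0.15), where it no longer passes either. With every group centred, 9 pairs passed, 4 of them new at an adjusted p of 0.091: Nr1i3 with Cyp2a5 (centred r 0.649), Nr1i3 with Cyp2b10 (-0.633), Por with Cyp3a11 (-0.689) and Cyp1a2 with Cyp2a5 (0.658). Permuting centred values over all 13 mice ignores the 3 group means taken out. The p values of centred r are therefore too small, and a pass at 0.091 is not firm. Uncentred, the r of these 4 pairs was 0.652, -0.509, -0.235 and 0.613, with adjusted permutation p of 0.11, 0.25, 0.69 and 0.11. Without the 2 farthest mice r was 0.668, -0.311, -0.240 and 0.176 in that order. By Spearman's rho, 3 of the 45 pairs passed: Cyp2b10 with Cyp2c29, Por with Cyp2a5 and Nr1i3 with Por.

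**Figure D3:**
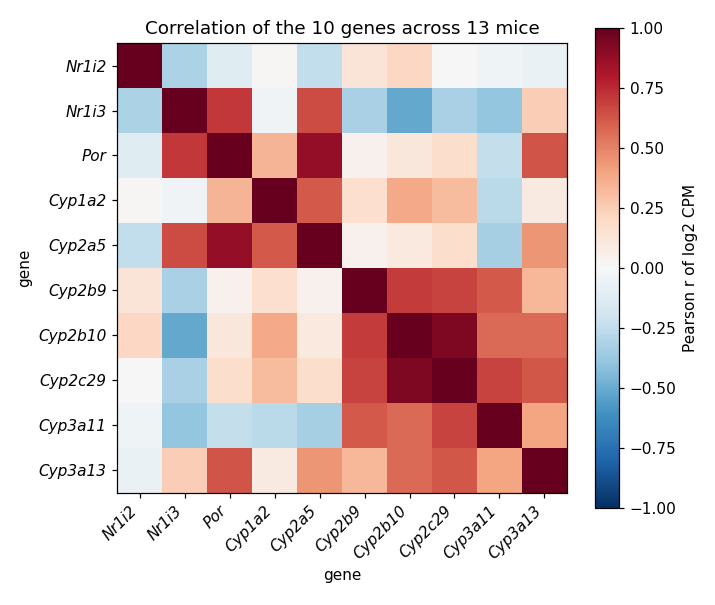
Pearson's r of log2 CPM over the 13 mice for every pair of the 10 genes, from blue for -1 to red for 1. Cyp2b10 with Cyp2c29 and Por with Cyp2a5 have the highest values, 0.931 and 0.875.

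As a measure of where each liver stood in the clock, the log2 ratio of Dbp to Arntl was taken, genes whose peaks lie at opposite times of day. The ratio was -0.955, 6.49, 1.81 and 6.11 in the ASAH− Dox mice, 6.64, 6.78, -1.64, 0.151 and 2.70 in the ASAH+ Dox mice, and 4.45, 6.06, 5.05 and 1.60 in the ASAH+ Etoh mice. The ASAH+ Etoh mice run from 1.60 to 6.06, and the groups on Dox reach both lower and higher, so all 3 overlap. Of 10 relations tested, 3 passed an adjusted p of 0.1. Nr1i3 had r 0.850 with the ratio (permutation p 0.00037, adjusted 0.0012) and rho 0.841 (p 0.00067), 0.913 without the 2 farthest mice and 0.853 centred on groups. Por had r 0.873 (permutation p 0.00020, adjusted 0.0010) and rho 0.797 (p 0.0020), 0.815 without 2 mice and 0.901 centred. Cyp2a5 had r 0.882 (permutation p 5.0e-05, adjusted 0.00050) and rho 0.841 (p 0.00060), 0.816 without 2 mice and 0.883 centred. A larger r in size was found in 1.75%, 1.18% and 1.03% of all genes tested, in that order. With Cyp2b10 the ratio had r -0.18 (permutation p 0.56, adjusted 0.70) and rho -0.275 (p 0.36), -0.490 without 2 mice and -0.311 centred. With Cyp2c29 it had r -0.07 (permutation p 0.82, adjusted 0.88) and rho -0.269 (p 0.38), -0.336 without 2 mice and -0.236 centred. Cyp3a11 had r -0.376 (permutation p 0.21, adjusted 0.48) and rho -0.549 (p 0.055), -0.480 without 2 mice, and -0.718 centred on groups (adjusted p 0.020). As for the pairs, the permutation p of a centred r is too small.

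**Figure D4:**
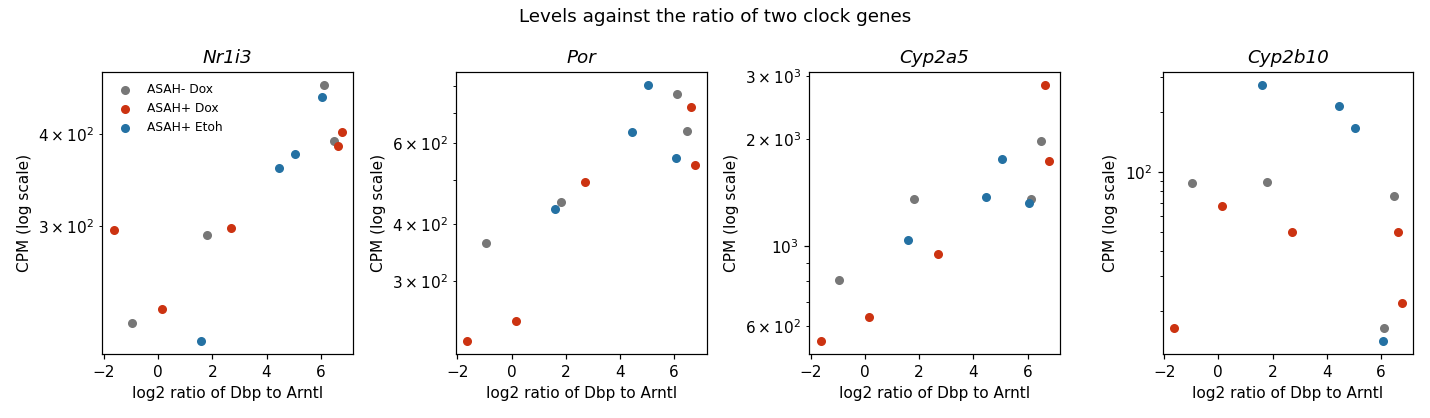
CPM on a log axis against the log2 ratio of Dbp to Arntl, 1 point per mouse and 1 panel per gene. Over all 13 mice r is 0.850 for Nr1i3, 0.873 for Por and 0.882 for Cyp2a5, while Cyp2b10 had r -0.18 with the ratio.

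A fit of the ratio as a covariate over all genes, chosen after the data were seen, called 4 of the 10 genes: Nr1i3, Por and Cyp2a5 with positive slopes and Cyp3a11 with a negative one. All genes tested gave 9.58% called, 4.84% with a positive slope. Per unit of the log2 ratio, log2 levels changed by 0.11 (SE 0.02) for Nr1i3, 0.16 (SE 0.02) for Por, 0.20 (SE 0.03) for Cyp2a5 and -0.06 (SE 0.02) for Cyp3a11. By edgeR's quasi-likelihood test (Benjamini-Hochberg), the adjusted p values were 0.00705, 0.00150, 0.00295 and 0.0740. Of 17 clock genes 14 were called in this fit, which includes the pair that makes the ratio. Whether the ratio reflects the hour of collection or a shift of the clock was not tested.

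The genes most like Nr1i2, Nr1i3, Por and Cyp2b10 across mice were sought among 7929 tested genes with a mean log2 CPM above 3. Those with the highest r with Nr1i3 were Acot4 (0.976), Optn (0.970) and Mat2b (0.962), and with Por they were Fam76a (0.937), Tbl2 (0.933) and Rnf139 (0.924). The highest with Cyp2b10 were Agmat (0.969) and Tkfc (0.965). With Nr1i2 they were Pld1 (0.778), Fkbp5 (0.772) and Nrbp2 (0.767). Each is the top of a search over all 7929 genes, so these r values carry no p.

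Wider groups of drug clearance genes were read as lists, some of which include genes described above. The lists were chosen with earlier results of these data known. Genes of a list can vary together across mice, as Cyp2b10 and Cyp2c29 did with r 0.931, so they are not separate observations. Of 28 genes known to be induced through CAR or PXR, 6 of them among the 10, edgeR called 0 in any comparison. In ASAH+ Dox against ASAH+ Etoh mice, 10 of the 28 were lower and 0 higher at unadjusted p under 0.05, against 3.24% of all genes lower, and DESeq2 kept 23 and called 6, all lower. Without those 6 genes, 7 of 22 were lower and 0 higher, and DESeq2 called 4 of the 17 it kept, against 4.04% of all genes it kept lower. The median log2 fold change of the list was nonetheless -0.08, beside 0.01 for all genes, with a range from -2.02, which is Cyp2b10, to 0.27. The smallest p in this list belonged to Cyp2c37 and Akr1b7. Cyp2c37 stood at 909, 728, 1119.8, 1116 and 1123 CPM in the ASAH+ Dox mice and at 1914, 1216, 1382 and 1797 in the ASAH+ Etoh mice, with no overlap. Its log2 fold change was -0.66 (SE 0.15), with an adjusted p of 0.407 by edgeR's quasi-likelihood test (Benjamini-Hochberg) and 0.00443 by DESeq2. The ASAH− Dox mice had 1259.5, 1189, 1010.4 and 1200.4 CPM. In ASAH− Dox against ASAH+ Etoh mice 6 of the 28 were lower and 0 higher, against 4.11% of all genes lower, and 5 of 22 without the 6 genes. There DESeq2 called 1 of the 25 it kept, lower, against 1.10% of all genes it kept lower. In ASAH+ Dox against ASAH− Dox mice 1 was lower, against 1.57% of all genes, and DESeq2 called 0 of 28.

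Of 48 tested cytochromes of families 1 to 3, 8 were lower and 1 higher at unadjusted p under 0.05 in ASAH+ Dox against ASAH+ Etoh mice, with a median log2 fold change of -0.03. Without the 7 cytochromes described above, 4 of 41 were lower and 1 higher. All genes tested had 3.24% lower and 4.05% higher. The other lists in this comparison had 3 higher and 1 lower of 16 UDP-glucuronosyltransferases, 2 higher and 4 lower of 15 sulfotransferase genes, and 4 lower of 13 transporters. Of 24 hydrolases and other phase I enzymes 3 were lower, and of 21 glutathione transferases 0 were lower or higher. Among transporters the smallest p values belonged to Slc10a1, with a log2 fold change of -0.43, and Abcc2, with -0.24 and no overlap of the groups. These were also the transporters with the smallest p in ASAH− Dox against ASAH+ Etoh mice, where 3 of 13 were lower at unadjusted p under 0.05, against 4.11% of all genes. DESeq2 called 1 of the 11 it kept in that comparison, lower, against 1.10% of all genes it kept lower. There Abcc2 had -0.27, again with no overlap, and Slc10a1 had -0.29. edgeR called 0 genes of these lists at the adjusted threshold. In ASAH+ Dox against ASAH+ Etoh mice DESeq2 called 4.04% of all genes it kept lower and 0.908% higher. Of the cytochromes it kept 30 in that comparison and called 5 lower, or 2 of 23 without the 7. It called 2 higher and 1 lower of 13 UDP-glucuronosyltransferases kept, 1 lower of 6 sulfotransferase genes, 3 lower of 8 transporters, 0 of 17 hydrolases and other phase I enzymes and 0 of 10 glutathione transferases. At unadjusted p under 0.05 the cytochromes counted 1 higher and 2 lower of 48 in ASAH+ Dox against ASAH− Dox mice, beside 1.29% and 1.57% of all genes. They counted 0 higher and 4 lower in ASAH− Dox against ASAH+ Etoh mice, or 2 lower of 41 without the 7, beside 5.08% and 4.11% of all genes.

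Genes that mark cell types are given beside these results. At the adjusted threshold edgeR called 0 genes of any cell type list in any comparison, so their counts below are at unadjusted p under 0.05. By that measure 4.05% of all genes tested were higher and 3.24% lower in ASAH+ Dox against ASAH+ Etoh mice, 5.08% and 4.11% in ASAH− Dox against ASAH+ Etoh mice, and 1.29% and 1.57% in ASAH+ Dox against ASAH− Dox mice. Whatever their p, 6728, 6698 and 7254 of all 14317 genes tested had a negative log2 fold change, in that order of comparisons. All 6 erythroid genes were higher in ASAH+ Dox than in ASAH+ Etoh mice, with a median log2 fold change of 1.87, and all 6 also in ASAH− Dox against ASAH+ Etoh mice, with 2.23. DESeq2 called 3 of the 3 it kept in the first and 4 of the 5 it kept in the second, all higher, against 0.908% and 0.626% of all genes it kept. Between ASAH+ Dox and ASAH− Dox mice 0 of these 6 were lower or higher, with all 6 negative (median -0.34). Their summed level was 231, 753, 1720.0 and 215 CPM in the ASAH− Dox mice, 689.8, 241, 878, 355 and 648 in the ASAH+ Dox mice, and 135, 159.8, 175 and 192 in the ASAH+ Etoh mice. Hbb-bs was the most abundant in every mouse, and Slc4a1 had 0 counts in ASAH+ Etoh replicates 1 and 4. Of 6 endothelial genes 5 were lower in ASAH+ Dox than in ASAH+ Etoh mice, with a median of -0.48, and 4 of 6 were lower in ASAH+ Dox than in ASAH− Dox mice, with a median of -0.40 and all 6 negative. Between ASAH− Dox and ASAH+ Etoh mice 0 were lower or higher. DESeq2 kept 0 of the 6 in ASAH+ Dox against ASAH+ Etoh mice and called 0 of 6 in each other comparison. Their sum was 162, 137, 253 and 182 CPM in the ASAH− Dox mice, 138, 148, 121, 167 and 146 in the ASAH+ Dox mice, and 218, 157, 193 and 198 in the ASAH+ Etoh mice, with Fcgr2b, Clec4g or Stab2 the most abundant, depending on the mouse, and no gene at 0. Of 6 Kupffer cell genes 4 were higher in ASAH− Dox than in ASAH+ Etoh mice, with a median of 0.58, and DESeq2 called 0 of the 6. In each of the other comparisons 0 of the 6 were lower or higher. All 6 Kupffer cell genes were negative in ASAH+ Dox against ASAH− Dox mice (median -0.31) and positive in ASAH+ Dox against ASAH+ Etoh mice (median 0.31). That sum was 321, 315, 676 and 402 CPM in the ASAH− Dox mice, 440.1, 449.6, 237, 384 and 235 in the ASAH+ Dox mice, and 313, 246, 268 and 286 in the ASAH+ Etoh mice, with Cd5l the most abundant and no gene at 0. Of 8 hepatocyte genes 2 were lower and 0 higher in ASAH+ Dox against ASAH+ Etoh mice (DESeq2 called 2 lower, against 4.04% of all genes it kept), and 2 lower and 0 higher against ASAH− Dox mice (DESeq2 called 1 lower, against 0.0316%). The comparison of ASAH− Dox with ASAH+ Etoh mice had 1 lower and 1 higher, and DESeq2 called 1 of each, against 1.10% of all genes it kept lower and 0.626% higher. Alb was the most abundant in every mouse, and none was at 0. Of 6 lymphocyte genes tested, 2 were higher and all 6 positive both in ASAH+ Dox (median 0.77) and in ASAH− Dox mice (median 0.85) against ASAH+ Etoh mice, and DESeq2 kept 0 of them in either. The sum of the 7 listed was 2.15, 3.66, 4.41 and 4.15 CPM in the ASAH− Dox mice, 2.65, 5.62, 3.18, 5.01 and 3.43 in the ASAH+ Dox mice, and 1.24, 3.34, 1.72 and 1.97 in the ASAH+ Etoh mice. The most abundant of them differed between mice, and 1 was at 0 in ASAH+ Etoh replicate 1. Of 6 stellate cell genes 2 were higher and all 6 positive in ASAH− Dox against ASAH+ Etoh mice (median 0.28). In ASAH+ Dox against ASAH− Dox mice 1 was lower and all 6 were negative (median -0.22), and DESeq2 called 0 in any comparison. Their sum was 289, 287, 378 and 317 CPM in the ASAH− Dox mice, 271, 296, 285, 277 and 224 in the ASAH+ Dox mice, and 295, 238, 244 and 307 in the ASAH+ Etoh mice, with Dcn the most abundant and no gene at 0. Of 5 cholangiocyte and 2 neutrophil genes tested, 0 were lower or higher in any comparison. All 5 cholangiocyte genes were negative in ASAH+ Dox against ASAH− Dox mice (median -0.36) and positive in ASAH− Dox against ASAH+ Etoh mice (median 0.29). Of 13 genes of periportal hepatocytes 5 were lower in ASAH+ Dox against ASAH+ Etoh mice (median -0.27), and DESeq2 kept 11 of the 13 and called 2 lower, against 4.04%. In the comparison of ASAH− Dox with ASAH+ Etoh mice 2 were lower and DESeq2 called 1 of 12 lower, against 1.10%, and 1 was lower and 1 higher in ASAH+ Dox against ASAH− Dox mice. Of 12 pericentral genes 1 was lower in ASAH+ Dox against ASAH+ Etoh mice and 2 against ASAH− Dox mice, with 11 of 12 negative in each and medians of -0.26 and -0.28, and DESeq2 called 0. Between ASAH− Dox and ASAH+ Etoh mice 0 were lower or higher, with a median of 0.01. Their part in the result was not tested.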

How the data were processed

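The authors deposited 1 table of estimated counts for the 13 livers, which salmon (version not given) made from GENCODE M19 transcripts and tximport summed to genes; all values were whole numbers. The transcript lengths that tximport can pass on were not available and not used. Of 53392 gene IDs, 53355 were given a symbol. For ASAH+ mice, sample titles and descriptions disagree about Dox, each naming the other treatment; groups follow the descriptions, which match the induction labels. The design text speaks of 4 mice a group, and the table holds 4, 5 and 4.

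R 4.3.3 with edgeR 4.0.16 was used (filterByExpr, TMM, robust quasi-likelihood fit of 3 group means, 14317 genes tested, Benjamini-Hochberg adjustment, adjusted p under 0.1). DESeq2 1.42.0 and limma-voom 3.58.1 served as alternatives. CPM are TMM-scaled, and logs use a prior count of 2. Permutation tests were two-sided, exact for groups and with 100000 resamples for correlations. Promoters are RefSeq on GRCm38.p6. Other alternatives were size factors, filters, pairs of groups fitted alone, Asah1 left out, a block by replicate number, the Dbp to Arntl ratio as a covariate, summed paralogs and each mouse left out. The slope on that ratio and the DESeq2 fits without each mouse were chosen after seeing the data. The 10 genes and the lists were chosen with earlier results of these data known. From a list, genes called and at most the 2 with the smallest p per comparison are named. Scripts were tested on simulated data.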

Additional observations from a re-analysis of the deposited data

Results flagged for a closer look

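Of 33 groups of values tested for a mouse far from the rest, 1 was picked out, and chance picks out about 1 in 20. Cyp3a13 in ASAH+ Dox replicate 1 stood at 234 CPM, while the nearest mouse of its group stood at 184, a gap of 0.873 of the group's whole range. The same mouse had the highest Cyp2a5 and Cyp1a2 of all 13, 2833 and 650.4 CPM. No explanation was tested.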

How the results depend on the processing

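Over the alternatives for the 10 genes' log2 fold changes, 688 values kept their sign and their side of the threshold, 57 changed sign and 5 newly passed, these being Cyp2c29, Cyp3a11 and Cyp3a13 in DESeq2. The cause was not tested for any of them. All genes called in ASAH+ Dox against ASAH− Dox mice, 2, became 12 with DESeq2 on 13 mice and 11 on the compared groups, and 1 with edgeR on the compared groups, with Asah1 left out (which removes a called gene) or with the replicate block. Against ASAH+ Etoh mice, 2 became 98 and 114 with DESeq2, 4 with no filter and 1 with Asah1 left out, and the 10 genes' count of 0 became 3 and 2 with DESeq2. In ASAH− Dox against ASAH+ Etoh mice, 2 became 149 and 168 with DESeq2, 1 with limma-voom, 1 with the clock ratio as covariate, and 0 with edgeR on the compared groups, the block or adjusted p under 0.05. Correlated pairs went from 6 to 10 with DESeq2 size factors and 3 with rho. Changes of sign in ASAH+ Dox against ASAH− Dox were Cyp2b9 -0.00933 (block), Cyp3a11 -0.00374 (ratio), and Cyp2a5 0.144 and Cyp2b9 -0.144 (paralogs summed). Against ASAH+ Etoh they were Nr1i2 -0.00319 and -0.00145 (DESeq2), -0.00117 (size factors in edgeR), -0.0191 (block) and -0.00615 (ratio), and Nr1i3 0.0563 (ratio). In ASAH− Dox against ASAH+ Etoh they were Cyp2a5 -0.0129 and -0.0124 (DESeq2), -0.0101 (size factors), -0.0432 (limma-voom), -0.00549 (edgeR on the compared groups), -0.000369 (no filter), -0.0119 (Asah1 left out) and -0.207 (paralogs), and Nr1i3 0.0106 (block) and 0.0604 (ratio). With each mouse left out, all genes called ran from 1 to 2, from 2 to 8 (8 without ASAH+ Etoh replicate 2) and from 0 to 2 in the 3 comparisons, the 10 genes' count stayed 0 in edgeR and ran from 0 to 4 in DESeq2 against ASAH+ Etoh mice, and correlated pairs ran from 2 to 13 (13 without ASAH+ Etoh replicate 2). The 3 relations with the clock ratio stayed 3. Log2 fold changes that changed sign ran, in ASAH+ Dox against ASAH− Dox, from -0.0791 to 0.0365 for Nr1i2, -0.241 to 0.0978 for Nr1i3, -0.507 to 0.189 for Cyp2a5, -0.0302 to 0.0756 for Cyp2b9 and -0.0656 to 0.122 for Cyp3a11. Against ASAH+ Etoh they ran from -0.0318 to 0.0360 for Nr1i2, -0.297 to 0.0354 for Nr1i3, -0.101 to 0.301 for Cyp1a2 and -0.515 to 0.155 for Cyp2a5. In ASAH− Dox against ASAH+ Etoh they ran from -0.0348 to 0.0877 for Nr1i2, -0.216 to 0.124 for Nr1i3, -0.333 to 0.0171 for Por and -0.224 to 0.174 for Cyp2a5. Without a change of sign, summing paralogs took Cyp2b10 from -0.706 to -0.144 in ASAH+ Dox against ASAH− Dox, from -2.02 to -0.241 against ASAH+ Etoh and from -1.32 to -0.0974 in ASAH− Dox against ASAH+ Etoh, and Cyp3a11 from -0.492 to -0.140 and from -0.527 to -0.155. Summing also took Cyp2b9 from -0.0992 to -0.241 in ASAH+ Dox against ASAH+ Etoh. The Cyp2b sum mostly shows Cyp2b9, which is far more abundant than Cyp2b10. Cyp3a41a, which shares most words with Cyp3a11, had 1.95 in ASAH+ Dox and 2.01 in ASAH− Dox against ASAH+ Etoh mice, opposite in sign to Cyp3a11. With a mouse left out, Por in ASAH+ Dox against ASAH− Dox ran from -0.564 to -0.120, Cyp1a2 from -0.460 to -0.0529 and Cyp3a13 from -0.215 to -0.0997.

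Whether more depth or more mice would change the calls was not tested. Cyp2b10 had a standard error of 0.72 on the log2 scale against ASAH+ Etoh mice. Mice with 1 replicate number were no more alike than others (mean correlation -0.0462 over 12 pairs against 0.0126 over 44), so the block has no support in these data.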
